A study of Homo sapiens with 16 samples.

Results

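The genes described here are 4 metallothioneins (MT2A, MT1X, MT1E and MT1F), the zinc exporter SLC30A1 and the metal-responsive transcription factor MTF1. They were taken by symbol, and all 6 were found, 1 row each, among the 23228 gene rows counted in 16 RNA-seq libraries of MDA-MB-231. This human breast cancer line lacks the oestrogen receptor and has a mesenchymal look. Cells in sub-confluent dishes and serum-containing medium received 1 of 4 treatments, and RNA was taken at 8 h and at 24 h. The combination was sorafenib (1 µM, a multikinase inhibitor) for 12 h followed by methyl methanesulfonate (MMS, which methylates DNA). The other treatments were MMS alone, sorafenib alone at 1 µM, and the solvent DMSO. The labels give the MMS dose as 40 µM and the series description as 40 µg/mL, and the sources used here do not settle which was used. Times of the combination were counted from the addition of MMS. Sorafenib was thus started 12 h earlier there, relative to the RNA, than in the groups with sorafenib only. The labels do not say whether sorafenib was kept on during MMS. Each of the 8 groups held 2 libraries, which the series description calls independent experiments. Replicate 1 has a title that starts with MDA231 and replicate 2 one that starts with MDAMB231. By its title the study asked about inflammation and angiogenesis under low-dose sorafenib and alkylating agents, and metal handling is not named there.

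Metallothioneins are small, cysteine-rich proteins that bind zinc, copper and cadmium and buffer the cell's free zinc. When free zinc rises, MTF1 takes it up through its zinc fingers, enters the nucleus and binds metal response elements in front of the metallothionein genes and of SLC30A1, whose protein (also called ZnT1) carries zinc out across the plasma membrane. Metallothionein genes also respond to glucocorticoids and to oxidants, and MTF1 itself is made all the time and controlled mainly as a protein.

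The libraries held 16774156 to 26448212 counts in genes (median 20348720), and 29.5 to 31.5% of alignments were set aside by the authors' counter as not unique. Levels are given as counts scaled to a library total of 1000000 gene counts (CPM). The line's mesenchymal markers VIM, CD44, AXL, CAV1, MSN and ZEB1 were present in every library, with 56.8 CPM as the lowest value (ZEB1). SPARC, on the same list, had at most 0.965 CPM. The luminal epithelium list, expected low, was mixed. Its genes KRT8, KRT18, KRT19 and ERBB2 were present in every library, with 56.9 CPM as the lowest value (ERBB2). The oestrogen receptor gene ESR1 had at most 0.224 CPM, and PGR, CDH1, GATA3, FOXA1 and EPCAM at most 19.3 CPM (EPCAM). The summed level of the 7 mesenchymal markers was 4448 to 5517 CPM in the 8 libraries that received MMS, with or without sorafenib, against 5668 to 6818 CPM in the 8 libraries that did not. Summed markers of luminal epithelium (10 genes) came to 542 to 744 CPM with MMS, against 698 to 996 CPM without it. The sums were 7.56 to 17.6 CPM with MMS, against 13.7 to 34.6 CPM without it, for fibroblasts (6 genes), and 5.68 to 10.5 CPM with MMS, against 13.5 to 18.4 CPM without it, for endothelium (5 genes). Keratinocyte and hepatocyte markers (6 genes) summed to at most 2.76 CPM in any library. The part of these shifts in the results below was not tested.

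The metallothionein coding sequences are shown because their likeness limits how their reads can be told apart. All 4 metallothionein genes among the members lie on the plus strand of chromosome 16 (GRCh38, GENCODE v29): MT2A at 56608199 to 56609497, MT1E at 56625475 to 56627112, MT1F at 56657694 to 56660698 and MT1X at 56682424 to 56684196. SLC30A1 (211571568 to 211578742) and MTF1 (37809567 to 37859620) lie on the minus strand of chromosome 1. The files were counted on the earlier build hg19, so these positions only locate the genes. Each coding sequence has 61 codons before the stop, of which 20 encode cysteine, the residue that holds the metal. In the MT2A line the capitals mark those cysteine codons, and in the other lines they mark the bases that differ from MT2A.
MT2A: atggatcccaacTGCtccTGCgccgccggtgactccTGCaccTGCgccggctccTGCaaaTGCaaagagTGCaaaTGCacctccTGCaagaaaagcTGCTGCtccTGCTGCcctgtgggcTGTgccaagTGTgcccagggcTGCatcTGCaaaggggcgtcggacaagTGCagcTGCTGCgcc
MT1X: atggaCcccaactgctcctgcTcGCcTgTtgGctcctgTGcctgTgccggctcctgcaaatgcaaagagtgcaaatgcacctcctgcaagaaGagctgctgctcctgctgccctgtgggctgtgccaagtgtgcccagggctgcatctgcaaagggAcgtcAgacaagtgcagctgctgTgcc
MT1E: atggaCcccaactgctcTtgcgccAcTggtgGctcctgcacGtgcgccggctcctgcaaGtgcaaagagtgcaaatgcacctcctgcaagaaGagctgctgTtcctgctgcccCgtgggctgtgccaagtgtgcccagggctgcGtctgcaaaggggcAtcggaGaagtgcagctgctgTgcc
MT1X and MT1E each differed from MT2A at 14 of 183 bases, and MT1F at 16. Over whole transcripts, 16% of 50-base windows of MT1X also occur in a transcript of another gene, against 5.34% for MT1E, 4.88% for MT2A, 3.59% for MT1F, 0.896% for MTF1 and 0% for SLC30A1. MT1X lies over AC026461.1 on the same strand, and MTF1 over AL929472.4 on the opposite strand. The authors' counter set aside alignments that were not unique and reads that were ambiguous between genes. How many reads of each gene were lost in this way is not given in the sources used here. The metallothionein values, those of MT1X above all, carry that uncertainty.

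The 250 bases before the RefSeq start of MT2A, MT1X and SLC30A1 (GRCh38.p14) are shown because MTF1 acts through such windows. Capitals mark the core of the metal response element, searched as TGCACNC and TGCGCNC on both strands.
MT2A, chr16:56608334-56608583, plus strand: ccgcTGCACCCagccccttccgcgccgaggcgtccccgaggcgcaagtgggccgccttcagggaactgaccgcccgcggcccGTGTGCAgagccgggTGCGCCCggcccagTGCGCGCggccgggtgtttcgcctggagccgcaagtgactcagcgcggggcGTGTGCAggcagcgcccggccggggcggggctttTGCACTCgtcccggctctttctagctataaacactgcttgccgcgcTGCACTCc
MT1X, chr16:56682220-56682469, plus strand: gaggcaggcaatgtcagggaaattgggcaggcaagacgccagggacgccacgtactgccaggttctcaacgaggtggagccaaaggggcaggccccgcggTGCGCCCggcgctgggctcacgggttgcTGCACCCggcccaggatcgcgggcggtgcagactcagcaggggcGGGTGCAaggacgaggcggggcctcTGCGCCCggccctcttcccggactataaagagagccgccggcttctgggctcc
SLC30A1, chr1:211579162-211579411, minus strand: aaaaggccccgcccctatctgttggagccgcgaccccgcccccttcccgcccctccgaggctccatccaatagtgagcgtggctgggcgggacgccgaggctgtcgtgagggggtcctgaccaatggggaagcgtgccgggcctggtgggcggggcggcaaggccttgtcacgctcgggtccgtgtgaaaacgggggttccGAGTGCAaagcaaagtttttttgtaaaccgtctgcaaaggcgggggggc
There were 7 cores in the MT2A window, 4 in MT1X, 1 in SLC30A1 and 0 in MTF1, whose window is not printed. The RefSeq starts used differ from the GENCODE gene bounds given above. The MT2A window lies inside the GENCODE gene, and the SLC30A1 window stands off upstream of its GENCODE gene. The counts hold only for these windows, and other starts were not searched. Of 35116 gene windows of the same length, 24.8% held at least 1 core, 6.48% at least 2 and 0.37% at least 4. The antioxidant response element core, searched as TGACNNNGC, was found once each in MT2A, MT1X and SLC30A1, and 10.9% of the windows held it. A match is only a run of letters and says nothing about binding in these cells.

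MT2A was the most abundant member in every group. Per kilobase of exon it had 188 to 446 CPM as group means, against 24.6 to 92.7 for MT1E, 15.9 to 54.6 for MT1X, 4.76 to 14.8 for SLC30A1, 4.95 to 9.04 for MTF1 and 0.412 to 1.24 for MT1F. The order MT2A, MT1E, MT1X, SLC30A1, MTF1, MT1F held in 6 groups. In MMS and in the combination at 24 h MTF1 stood above SLC30A1. All other levels below are CPM not divided by length and are compared only within a gene.

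MT1F stayed close to the detection limit, with 3 to 22 counts per library. It had 0.807 and 1.01 CPM in the combination at 8 h, the highest group mean, and 0.174 and 0.431 CPM in MMS at 24 h, the lowest. In order of mean level, each group overlapped with the next. MT1F passed the test in none of the 16 comparisons (smallest adjusted p = 0.262), and it is left out of the rest.

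Of the 11 other metallothionein rows in the files only MT1A was abundant enough to test. MT1B, MT1H, MT1JP and MT4 had 0 counts in all libraries, which allows up to 3 counts, or 0.113 to 0.179 CPM, per library. No library had more than 2 counts of MT1G, MT1M, MT1L, MT1IP, MT1DP or MT3. MT2A alone made up 73.5 to 85.1% of the counts over all 15 metallothionein rows.

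**Figure D1:**
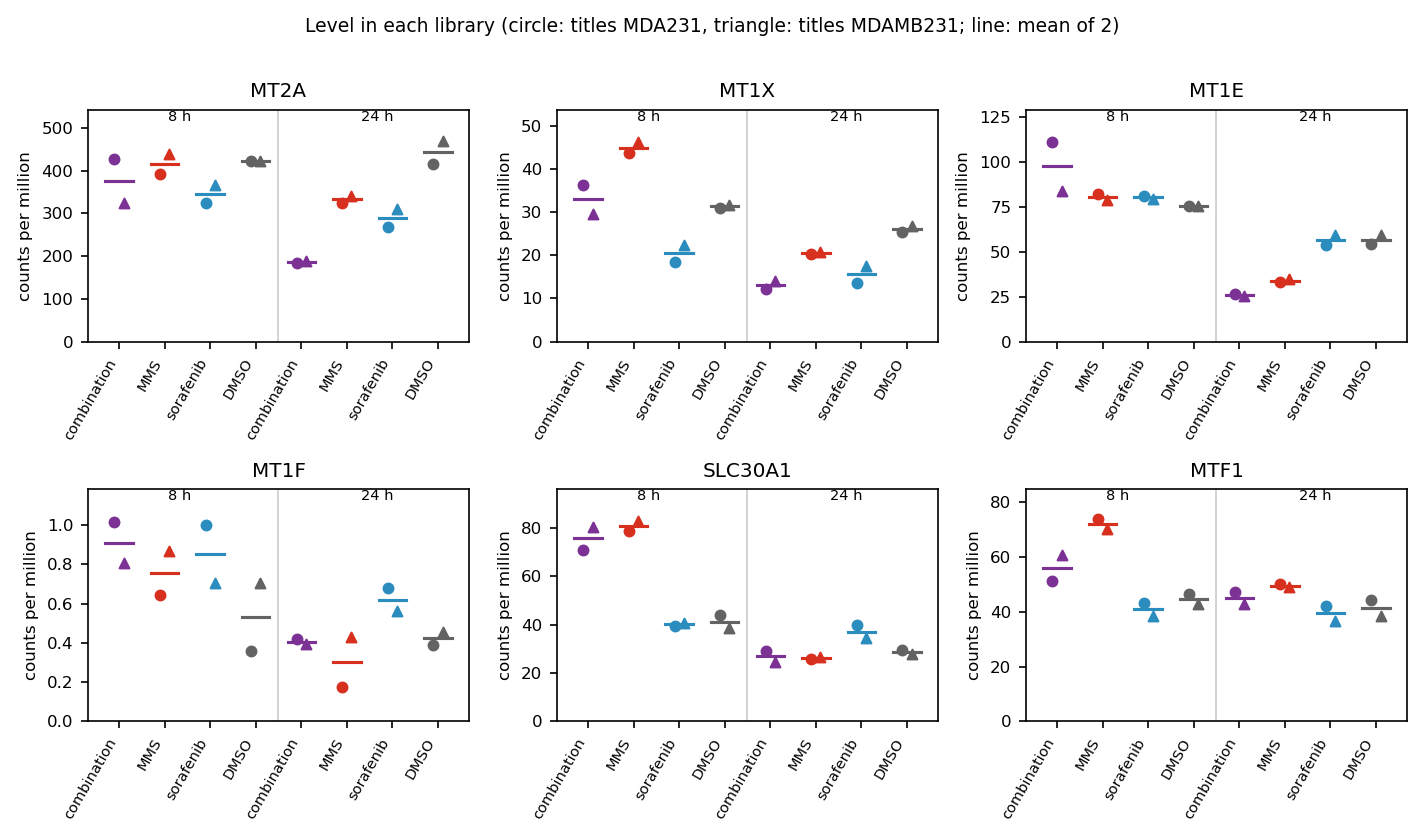
Level of each member in each library, in CPM on linear axes from 0. Within each time the groups run from the combination, MMS and sorafenib to DMSO. Circles are replicate 1, triangles replicate 2, lines the mean of 2. SLC30A1 and MTF1 stand highest in MMS at 8 h (means 80.8 and 72.1 CPM), and MT2A lowest in the combination at 24 h (186 CPM).

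With MMS for 8 h the exporter SLC30A1, the sensor MTF1 and the metallothionein MT1X rose, while MT2A and MT1E did not pass the test. SLC30A1 had 78.8 and 82.7 CPM in MMS, against 43.9 and 38.5 CPM in DMSO. Every MMS library was above every DMSO library, and the change was 2.01-fold (log2 change 1.01 ± 0.11 SE, adjusted p = 5.91e-05). Here and below, adjusted p-values are from edgeR's quasi-likelihood test, Benjamini-Hochberg adjusted over all 13948 genes tested, with 2 libraries a group. They set each change against a spread estimated between these 16 libraries, with information shared between genes. Whether groups overlapped only describes the 2 libraries on each side, and with so few libraries such separation can arise by chance. The share of all genes whose groups did not overlap was not counted. In bulk RNA a change per cell and a change in how many cells carry the transcript cannot be told apart.

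MTF1 had 73.8 and 70.3 CPM in MMS at 8 h, against 46.6 and 42.9 CPM in DMSO, 1.65-fold higher without overlap (log2 change 0.73 ± 0.12, adjusted p = 0.000793). MT1X had 43.6 and 46.3 CPM in MMS, against 31.0 and 31.6 CPM in DMSO. The MMS libraries again lay above both DMSO libraries (log2 change 0.56 ± 0.14, adjusted p = 0.00944). Leaving out DMSO replicate 1, DMSO replicate 2 or MMS replicate 2 put the adjusted p of MT1X at 0.0555, 0.0567 and 0.0660.

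MT2A had 392 and 438 CPM in MMS at 8 h, against 422 and 423 CPM in DMSO. Here the groups overlapped, with a log2 change of 0.01 ± 0.12 (95% interval -0.25 to 0.27, adjusted p = 0.964). MT1E, with 82.3 and 78.9 CPM in MMS against 75.5 and 75.3 CPM in DMSO, did not pass the test either (log2 change 0.13 ± 0.11, adjusted p = 0.422). Thus 3 of 6 members rose and 0 fell at 8 h, while 26.5% of all genes tested were called and 14.5% were higher. MT1X came to 11.1 and 10.6% of the MT2A counts in MMS, against 7.35 and 7.47% in DMSO.

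**Figure D2:**
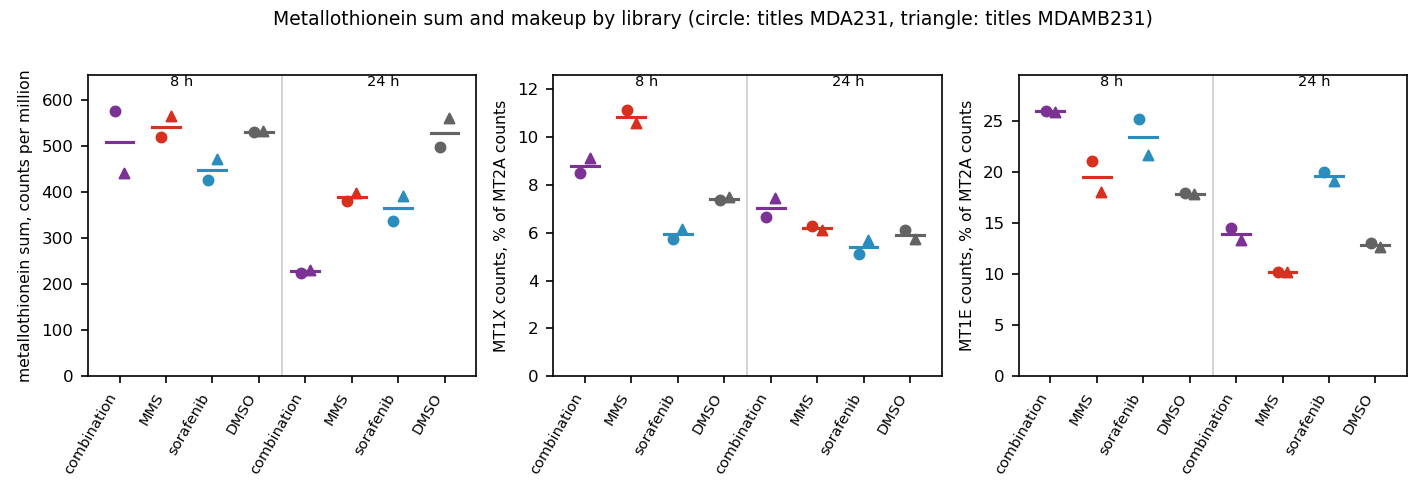
Summed CPM of the 15 metallothionein rows, and MT1X and MT1E counts as percent of MT2A counts, in each library (circles replicate 1, triangles replicate 2, lines the mean of 2). The sum is lowest in the combination at 24 h (225 and 232 CPM), and the MT1X share highest in MMS at 8 h (11.1 and 10.6%).

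After 24 h of MMS 3 metallothioneins were lower than in DMSO, and neither SLC30A1 nor MTF1 passed the test. MT1E had 33.2 and 34.8 CPM in MMS, against 54.1 and 59.5 CPM in DMSO. It was lower in both MMS libraries, at 0.577 of the DMSO level (log2 change -0.79 ± 0.11, adjusted p = 0.000391). MT2A had 325 and 340 CPM in MMS, against 415 and 470 CPM in DMSO (log2 change -0.47 ± 0.12, adjusted p = 0.0114). MT1X had 20.4 and 20.7 CPM in MMS, against 25.4 and 26.9 CPM in DMSO (log2 change -0.40 ± 0.14, adjusted p = 0.0469). In both genes the groups did not overlap. MT1X had an adjusted p of 0.0916 to 0.177 without any 1 of them. MT2A had 0.0763 without MMS replicate 1, 0.0949 without DMSO replicate 2 and 0.0564 without MMS replicate 2.

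SLC30A1 had 25.7 and 26.4 CPM in MMS at 24 h, against 29.6 and 27.7 CPM in DMSO (log2 change -0.19 ± 0.12, adjusted p = 0.244). MTF1 had 50.1 and 49.1 CPM in MMS, against 44.4 and 38.5 CPM in DMSO (log2 change 0.21 ± 0.12, adjusted p = 0.224). Neither passed the test. In all, 3 of 6 members fell and 0 rose, while 31.5% of all genes were called and 16.3% were lower.

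The difference between the MMS effects at 24 h and 8 h was tested directly, with each time's MMS set against its own DMSO. It was negative for SLC30A1 (log2 difference -1.20 ± 0.16, adjusted p = 0.00118), MT1X (-0.96 ± 0.19, adjusted p = 0.0108) and MT1E (-0.93 ± 0.16, adjusted p = 0.00445). The MT1X difference had an adjusted p of 0.0503 without replicate 2 of MMS at 8 h. Such a difference was called for 9.13% of all genes, 5.6% downward. A second fit took the title start as a replicate block, which lets each gene differ between the title starts by a constant factor. With that block, which called 25.5% of all genes here, MT2A (-0.47, adjusted p = 0.0203) and MTF1 (-0.52, adjusted p = 0.0101) passed too. Without the block they had adjusted p-values of 0.103 and 0.0781.

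The DMSO libraries of both times were also compared. SLC30A1 had 29.6 and 27.7 CPM in DMSO at 24 h, against 43.9 and 38.5 CPM at 8 h (log2 change -0.55 ± 0.12). MT1E had 54.1 and 59.5 CPM in DMSO at 24 h, against 75.5 and 75.3 CPM at 8 h (log2 change -0.44 ± 0.11). Neither gene's groups overlapped, but the adjusted p-values were 0.0546 and 0.0845. Thus edgeR called 0 of 6 members and 0.66% of all genes. At an unadjusted p under 0.05 there were 2 members and 16.2% of all genes, and DESeq2 called 2 members and 2.76% of the 19083 genes it tested. With the replicate block both passed (adjusted p = 0.00302 for SLC30A1 and 0.00814 for MT1E, with 13.6% of all genes called).

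**Figure D3:**
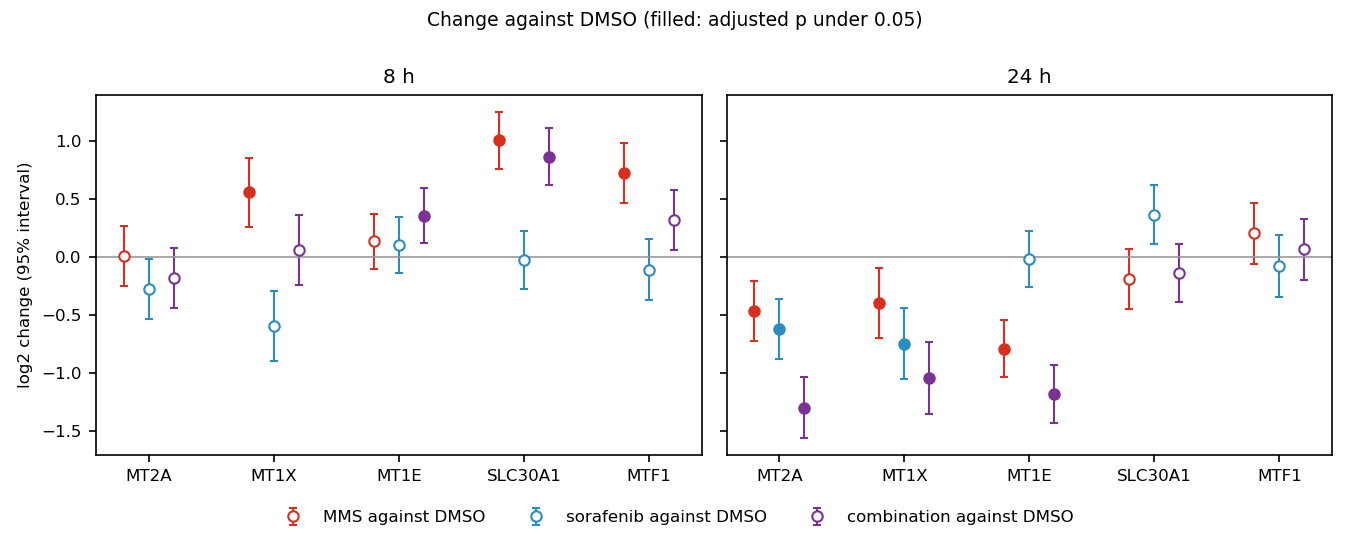
Log2 change against DMSO at 8 h (left) and 24 h (right) for 5 members, with 95% intervals. Filled points have an adjusted p under 0.05. At 8 h the filled points lie above 0, led by SLC30A1 with MMS (1.01), and at 24 h they lie below 0, the lowest being MT2A with the combination (-1.30).

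With sorafenib alone MT1X and MT2A were lower at 24 h, and no member was called at 8 h. MT1X had 13.7 and 17.6 CPM in sorafenib, against 25.4 and 26.9 CPM in DMSO (log2 change -0.75 ± 0.14, adjusted p = 0.0301). MT2A had 268 and 311 CPM in sorafenib, against 415 and 470 CPM in DMSO (log2 change -0.62 ± 0.12, adjusted p = 0.0344). Both genes were lower in each sorafenib library than in either DMSO library. These were 2 of 6 members, in a comparison where 0.817% of all genes were called and 0.574% were lower. The adjusted p of MT1X was 0.102 without DMSO replicate 1, 0.38 without sorafenib replicate 1 and 0.182 without DMSO replicate 2. That of MT2A was 0.0702 to 0.427 without any 1 of the 4 libraries.

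MT1E, with 53.6 and 59.3 CPM in sorafenib against 54.1 and 59.5 CPM in DMSO at 24 h, did not pass the test (adjusted p = 0.999). SLC30A1 was higher, with 39.6 and 34.5 CPM in sorafenib, against 29.6 and 27.7 CPM in DMSO. Its groups did not overlap, and it passed only with the replicate block (log2 change 0.37 ± 0.12, adjusted p = 0.251 without the block and 0.0427 with it, where 7.18% of all genes were called).

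At 8 h of sorafenib edgeR called 0 of 6 members and 0.394% of all genes. At an unadjusted p under 0.05 there were 2 members and 7.6% of all genes, and DESeq2 called 1 member and 0.922% of its 19083 genes. MT1X had 18.6 and 22.5 CPM in sorafenib, against 31.0 and 31.6 CPM in DMSO (log2 change -0.60 ± 0.14, adjusted p = 0.125). It was lower in both sorafenib libraries and passed with the replicate block (adjusted p = 0.00466, with 5.03% of all genes called). MT2A had 323 and 366 CPM in sorafenib, against 422 and 423 CPM in DMSO (log2 change -0.28 ± 0.12, adjusted p = 0.6).

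Each library with sorafenib can be set beside the library of the same time, title start and MMS state without it, which gives 8 pairs. MT1X and MTF1 were lower with sorafenib in 8 of 8 pairs and MT2A in 7 of 8, while MT1E and SLC30A1 were lower in 4 of 8. Of all genes tested, 4.55% were lower in every pair. Neither comparison of sorafenib alone with DMSO called MTF1 in edgeR, with or without the block. The difference between the sorafenib effects at 24 h and 8 h was called for 0 members and 0 of all genes by edgeR and by DESeq2, with 1 member and 150 genes at an unadjusted p under 0.05.

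SLC30A1 rose with the combination at 8 h as well. It had 70.9 and 80.3 CPM in the combination, against 43.9 and 38.5 CPM in DMSO (log2 change 0.87 ± 0.11, adjusted p = 0.000202). MT1E was called as well, with 111 and 84.1 CPM in the combination, against 75.5 and 75.3 CPM in DMSO (log2 change 0.36 ± 0.11, adjusted p = 0.0329). That call rested on 1 library, since without replicate 1 of the combination the log2 change was 0.12 (adjusted p = 0.423). It was also lost without DMSO replicate 1 (adjusted p = 0.117) or DMSO replicate 2 (adjusted p = 0.15). These were 2 of 6 members, with 24.3% of all genes called.

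MTF1 had 51.4 and 60.9 CPM in the combination at 8 h, against 46.6 and 42.9 CPM in DMSO (log2 change 0.32 ± 0.12, adjusted p = 0.0753 without the replicate block and 0.0128 with it, where 39.5% of all genes were called). MT2A had 427 and 325 CPM in the combination, against 422 and 423 CPM in DMSO, the widest gap between replicates of any group for this gene. Its log2 change of -0.18 ± 0.12 (adjusted p = 0.32) became -0.41 (adjusted p = 0.0258) without replicate 1 of the combination.

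Set against MMS at 8 h, the combination gave 0 of 6 members and 0.624% of all genes called by edgeR. At an unadjusted p under 0.05 there were 2 members and 13.8% of all genes, and DESeq2 called 1 member and 1.88% of its genes. MT1X had 36.2 and 29.6 CPM in the combination, against 43.6 and 46.3 CPM in MMS (log2 change -0.50 ± 0.14, adjusted p = 0.145). MTF1 had 51.4 and 60.9 CPM in the combination, against 73.8 and 70.3 CPM in MMS (log2 change -0.41 ± 0.12, adjusted p = 0.162). Both were below both MMS libraries, and both passed with the replicate block (adjusted p = 0.0105 for MT1X and 0.0138 for MTF1, with 9.51% of all genes called). SLC30A1 did not pass the test in either fit (log2 change -0.14 ± 0.11, 95% interval -0.39 to 0.10, adjusted p = 0.64). MT1E reached an adjusted p of 0.0342 when replicate 2 of the combination was left out, against 0.398 with it.

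Set against sorafenib at 8 h, 3 of 6 members rose in the combination, with 24.5% of all genes called and 13.0% higher. SLC30A1 had 70.9 and 80.3 CPM in the combination, against 39.4 and 40.8 CPM in sorafenib (log2 change 0.89 ± 0.11, adjusted p = 0.000172). MT1X had 36.2 and 29.6 CPM in the combination, against 18.6 and 22.5 CPM in sorafenib (log2 change 0.66 ± 0.14, adjusted p = 0.00455). The adjusted p of MT1X was 0.0579 without sorafenib replicate 1. MTF1 had 51.4 and 60.9 CPM in the combination, against 43.4 and 38.6 CPM in sorafenib (log2 change 0.43 ± 0.12, adjusted p = 0.0216). Its adjusted p was 0.159 without sorafenib replicate 2 and 0.157 without replicate 2 of the combination. MT1E, with 111 and 84.1 CPM in the combination against 81.1 and 79.3 CPM in sorafenib, passed with the replicate block (log2 change 0.25, adjusted p = 0.0461, with 39.8% of all genes called) and missed without it (adjusted p = 0.119). Without replicate 2 of the combination its adjusted p was 0.00685.

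At 24 h the combination had the lowest group means of MT2A, MT1E and MT1X in the series. MT2A had 183 and 189 CPM in the combination, against 415 and 470 CPM in DMSO, 0.406 of the DMSO level (log2 change -1.30 ± 0.12, adjusted p = 2.17e-05). MT1E had 26.5 and 25.2 CPM in the combination, against 54.1 and 59.5 CPM in DMSO (log2 change -1.19 ± 0.11, adjusted p = 2.77e-05). MT1X had 12.2 and 14.0 CPM in the combination, against 25.4 and 26.9 CPM in DMSO (log2 change -1.05 ± 0.14, adjusted p = 0.000229). Without any 1 library the log2 changes were -1.38 to -1.21 for MT2A, -1.25 to -1.11 for MT1E and -1.13 to -0.93 for MT1X. These genes were 3 of 6 members, with 33.4% of all genes called and 17.2% lower.

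MT1A, the other metallothionein tested, had 2.31 and 2.93 CPM in the combination at 24 h, against 4.25 and 4.49 CPM in DMSO (log2 change -0.79 ± 0.27, adjusted p = 0.042), and lost the call without any 1 of the 4 libraries. The sum over the 15 metallothionein rows was 225 and 232 CPM in the combination, against 499 and 561 CPM in DMSO. SLC30A1 had 29.2 and 24.7 CPM in the combination, against 29.6 and 27.7 CPM in DMSO (log2 change -0.14 ± 0.12, adjusted p = 0.392).

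Against MMS at 24 h, MT2A was 1 of the 17 genes called, 0.122% of all genes tested. It had 183 and 189 CPM in the combination, against 325 and 340 CPM in MMS (log2 change -0.84 ± 0.12, adjusted p = 0.0271). The groups did not overlap, but the adjusted p was 0.106 to 0.319 when any 1 of the 4 libraries was left out, with log2 changes of -0.86 to -0.82. MT1X had 12.2 and 14.0 CPM in the combination, against 20.4 and 20.7 CPM in MMS (log2 change -0.65 ± 0.14, adjusted p = 0.155 without the replicate block and 0.0072 with it, where 2.03% of all genes were called). MT1E had 26.5 and 25.2 CPM in the combination, against 33.2 and 34.8 CPM in MMS (log2 change -0.39 ± 0.11, adjusted p = 0.478).

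Against sorafenib at 24 h, 3 of 6 members were lower in the combination, with 36.8% of all genes called and 18.8% lower. MT1E had 26.5 and 25.2 CPM in the combination, against 53.6 and 59.3 CPM in sorafenib (log2 change -1.17 ± 0.11, adjusted p = 3.13e-05). MT2A had 183 and 189 CPM in the combination, against 268 and 311 CPM in sorafenib (log2 change -0.68 ± 0.12, adjusted p = 0.00105). SLC30A1 had 29.2 and 24.7 CPM in the combination, against 39.6 and 34.5 CPM in sorafenib (log2 change -0.51 ± 0.12, adjusted p = 0.00488). The SLC30A1 call was lost without sorafenib replicate 1 (adjusted p = 0.0813) and without replicate 2 of the combination (adjusted p = 0.0767). The combination's comparisons with DMSO, MMS and sorafenib share the combination libraries, so their values are not independent of each other. The comparisons with sorafenib, at both times, also take in its start 12 h earlier in the combination.

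The combination's effect also differed between the times. The effect at 24 h minus that at 8 h was -1.54 ± 0.16 on the log2 scale for MT1E (adjusted p = 0.000299), -1.12 ± 0.17 for MT2A (adjusted p = 0.00252), -1.11 ± 0.20 for MT1X (adjusted p = 0.00583) and -1.0 ± 0.16 for SLC30A1 (adjusted p = 0.00356). All 4 passed whichever 1 of the 8 libraries was left out, and 10.8% of all genes were called. MTF1 was not called (adjusted p = 0.385). The MMS and combination differences share the DMSO libraries of both times.

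**Figure D4:**
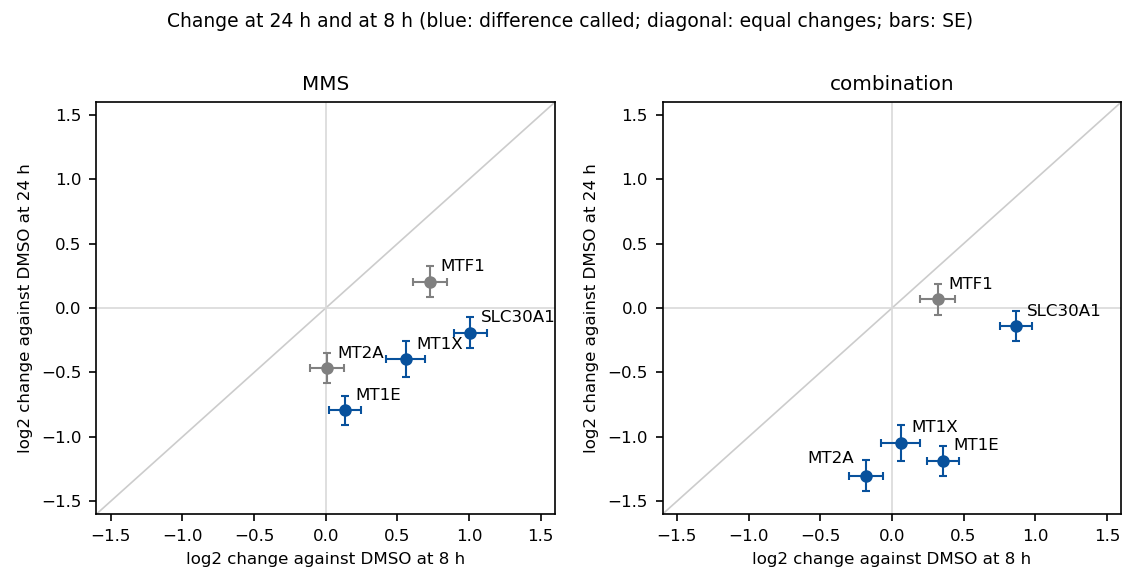
Log2 change against DMSO at 24 h (vertical) and at 8 h (horizontal) for MMS (left) and for the combination (right), with SE bars. Points on the diagonal would have equal changes at both times, and blue points have a difference with an adjusted p under 0.05. All points lie below the diagonal, and the largest difference is that of MT1E with the combination (-1.54).

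Whether sorafenib and MMS together did more or less than their separate changes added up was tested as an interaction at each time. Sorafenib was started 12 h earlier in the combination, relative to the RNA, than in the groups with sorafenib only. The interaction therefore cannot tell a departure from added changes apart from that difference in timing. It was called for 0 of 6 members and for 0 of all genes by edgeR at both times. DESeq2 called 1 gene at each time and 0 members. At an unadjusted p under 0.05 there were 0 members and 505 genes at 8 h, and 1 member (MT1E) and 304 genes at 24 h. The MT1E interaction at 24 h was -0.38 on the log2 scale, with a 95% interval, not adjusted for the number of genes, of -0.72 to -0.027. For MT2A at 24 h the 95% interval of the interaction ran from -0.58 to 0.16 on the log2 scale, so that departures from additive changes within those bounds were not excluded.

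Other genes of metal handling were followed in lists, counted at the same threshold as the members. Over the 69 tested genes of all lists, MMS changed 36 at 8 h and 26 at 24 h, while 26.5 and 31.5% of all genes were called. With the replicate block it changed 46 and 38, while 43.3 and 48.3% of all genes were called. The MMS counts of each list below are to be read beside these shares. Among 9 further zinc exporters of the SLC30 family, 6 were abundant enough to test. With MMS at 8 h SLC30A7, which loads zinc into the Golgi, rose (116 and 105 CPM in MMS, against 72.7 and 73.9 CPM in DMSO, log2 change 0.63 ± 0.14, adjusted p = 0.0055). In the same comparison 1 more, SLC30A6, fell (3 rose and 1 fell with the block), and the median log2 change of the 6 was 0.41, against -0.0042 over all genes tested. At 24 h of MMS 0 of the 6 were called, 3 with the replicate block.

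Of 14 zinc importers of the SLC39 family 11 were tested, and 2 rose and 1 fell with MMS at 8 h (2 and 3 with the block, median log2 change -0.18). The one that fell was SLC39A10, a plasma membrane importer, with 41.3 and 35.8 CPM in MMS, against 83.8 and 77.8 CPM in DMSO (log2 change -1.03 ± 0.16, adjusted p = 0.000611). It also fell at 24 h of MMS, with 56.6 and 57.5 CPM in MMS, against 128 and 92.7 CPM in DMSO (log2 change -1.01 ± 0.16, adjusted p = 0.000776), and in the combination at 24 h (log2 change -1.17 ± 0.16, adjusted p = 0.000269).

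Among 12 copper handling genes 1 rose and 3 fell with MMS at 8 h (median log2 change -0.22). The copper importer SLC31A1 had 143 and 134 CPM in MMS, against 100.1 and 101 CPM in DMSO (log2 change 0.49 ± 0.11, adjusted p = 0.00568). The metalloreductase STEAP3 had 71.3 and 71.3 CPM in MMS, against 127 and 109 CPM in DMSO (log2 change -0.69 ± 0.09, adjusted p = 0.000204). At 24 h STEAP3 fell too, with 44.5 and 46.3 CPM in MMS, against 124 and 128 CPM in DMSO (log2 change -1.53 ± 0.10, adjusted p = 4.09e-06).

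Among 10 iron handling genes 5 rose and 2 fell with MMS at 8 h (median log2 change 0.30), and 3 rose and 3 fell at 24 h (median 0.23). The heavy chain of the iron store ferritin, FTH1, rose at 8 h (343 and 385 CPM in MMS, against 169 and 190 CPM in DMSO, log2 change 1.06 ± 0.14, adjusted p = 0.000148) and at 24 h (log2 change 0.76 ± 0.13, adjusted p = 0.00143).

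Genes other than metallothioneins that metals and oxidants induce were also followed. All 8 antioxidant genes of the list rose with MMS at 8 h (median log2 change 1.73), and 4 of 8 at 24 h (median 0.46). SRXN1, which repairs oxidised peroxiredoxins, had 472 and 377 CPM in MMS at 8 h, against 137 and 129 CPM in DMSO (log2 change 1.71 ± 0.13, adjusted p = 4.54e-06). GCLM, the modifier subunit of the enzyme that starts glutathione synthesis, had 187 and 179 CPM in MMS, against 56.8 and 67.4 CPM in DMSO (log2 change 1.6 ± 0.11, adjusted p = 2.75e-06). Of 8 heat shock genes 5 rose at 8 h (median log2 change 0.40), among them the co-chaperone DNAJB1 (log2 change 0.53 ± 0.07, adjusted p = 0.000218), and 2 at 24 h. No set test was run on the lists, and the MT2A change in the same 8 h comparison was the 0.01 given above.

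Of 8 glucocorticoid-inducible genes 7 were tested, and 4 rose and 1 fell with MMS at 8 h (median log2 change 0.43), while 2 rose and 3 fell at 24 h (median 0.26). TSC22D3, which encodes the protein GILZ, had 31.2 and 30.3 CPM in MMS at 8 h, against 10.6 and 11.1 CPM in DMSO (log2 change 1.54 ± 0.17, adjusted p = 5.93e-05). KLF9 had 9.33 and 10.3 CPM in MMS at 24 h, against 27.8 and 27.8 CPM in DMSO (log2 change -1.56 ± 0.15, adjusted p = 3.69e-05). It was also the 1 gene that fell at 8 h, and TSC22D3 was among the 3 that fell at 24 h.

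Of 6 neighbours of the metallothionein cluster tested, OGFOD1 rose with MMS at 8 h (119 and 116 CPM in MMS, against 76 and 80.3 CPM in DMSO, log2 change 0.63 ± 0.08, adjusted p = 0.000144) and at 24 h (log2 change 0.44 ± 0.08, adjusted p = 0.00166). GNAO1 fell at 8 h (2.27 and 2.02 CPM in MMS, against 5.54 and 3.62 CPM in DMSO, log2 change -1.05 ± 0.29, adjusted p = 0.0198). The 8 h call was lost without DMSO replicate 1 (adjusted p = 0.178), MMS replicate 1 (0.0697) or MMS replicate 2 (0.106). It fell at 24 h too (1.8 and 1.47 CPM in MMS, against 8.10 and 5.79 CPM in DMSO, log2 change -2.15 ± 0.30, adjusted p = 0.000364), as did 1 more neighbour. The median log2 change of the 6 was -0.073 at 8 h and -0.035 at 24 h.

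With sorafenib alone edgeR called 0 of the 69 tested genes of these lists at either time (0.394 and 0.817% of all genes). An unadjusted p under 0.05 was found for 2 at 8 h and 9 at 24 h, and for 7.6 and 9.03% of all genes. DESeq2 called 0 at 8 h and 1 at 24 h (0.922 and 1.52% of its genes), and the replicate block 1 and 6 (5.03 and 7.18% of all genes). Without the block the combination differed from MMS in 1 list gene at 8 h and 0 at 24 h (0.624 and 0.122% of all genes). With the block it differed in 8 and 2 (9.51 and 2.03% of all genes). The 1 gene was DUSP1, a phosphatase gene that MAP kinase signalling induces. DUSP1 had 174 and 136 CPM in the combination at 8 h, against 303 and 305 CPM in MMS (log2 change -1.02 ± 0.15, adjusted p = 0.0129). The adjusted p was 0.0989 without MMS replicate 1 and 0.106 without MMS replicate 2.

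Over the 16 libraries, the genes whose log2 levels ran most like each member's were ranked by Pearson's r as a description. The libraries differ in treatment and time, and r takes in those differences. TPM4 (r = 0.971), MBLAC2 (0.961) and RTN4 (0.954) were closest to MT1E. SIM2 (0.94), MCL1 (0.935) and ERRFI1 (0.91) were closest to MT1X, and FAM43A (0.909), STK40 (0.887) and ARHGAP22 (0.874) to MT2A. ZBTB8A (0.975), CCNYL1 (0.963) and NADKD1 (0.963) were closest to SLC30A1, and CCNT2 (0.964), RMND5A (0.961) and KBTBD8 (0.96) to MTF1. No member was among the 3 genes most like another member. Among the members themselves r was highest between MT2A and MT1X (0.829) and lowest between MT2A and MTF1 (0.191).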

How the data were processed

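Total RNA of MDA-MB-231 cells was made into TruSeq libraries, per the labels' protocols. The values used are the raw read counts per gene that the authors deposited. Base calls came from CASAVA 1.8.2, alignments to hg19 from TopHat2 2.0.8b and counts from HTSeq, per the submitters' processing notes. Which annotation, strand setting, HTSeq version and overlap mode were used is not given in the sources used here. Each deposited table had 23228 gene rows and 5 counter rows, which stayed out of library totals and tests. Per library, 6.88 to 7.94% of reads fell in no gene, 1.03 to 1.18% were ambiguous and 29.5 to 31.5% were not uniquely aligned. A sample's group came from its labels. In every group the counts of the 2 libraries differed by more than sampling noise.

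The test was edgeR's quasi-likelihood F test (version 4.0.16, R 4.3.3) with TMM factors, the filterByExpr filter and 1 mean per group over all 16 libraries. P-values were Benjamini-Hochberg adjusted over 13948 genes, with a threshold of 0.05. All 6 members passed the filter. Standard errors are the log2 change over the square root of F. Of the 16 comparisons, 10 set treatments of the same time against each other, 2 were interactions, 3 asked whether an effect changed between times, and 1 set DMSO at 24 h against 8 h. CPM is a gene's count scaled to 1000000 gene counts, with no TMM factor. The limit that a count of 0 allows covers counting error only, and reads without molecular identifiers are not independent molecules.

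Titles begin in 2 ways, once per group, which the labels do not explain. Deviations from group means were correlated between same-titled libraries for 28 pairs of groups, with r from 0.489 to 0.707 (median 0.638). The title start was therefore taken to pair libraries, and the fit with it as a replicate block stands beside each member result whose call it changed, and beside list totals that it moved by over 1.5 times. The biological coefficient of variation was 0.136 in the fit without the block and 0.0632 in the blocked one.

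The alternatives tried were RLE factors, library totals only, DESeq2 (version 1.42.0), the unfiltered table, genes with a mean count of at least 50, the replicate block, a fit restricted to the libraries under comparison, and leaving out each library in turn. When that left a group with 1 library, it was assumed to vary like the others. The edgeR procedure was tested on simulated data. The leukocyte marker list is not reported here. The members and the lists were chosen with earlier results of these data known. Named were all members, from each list genes past the threshold (up to 4 with the smallest p per comparison, of which some are given only as counts), and the 3 genes with the highest Pearson's r of log2(CPM + 1) to each member among 11513 genes with a mean count of at least 50. Those of MT1F, at 3 to 22 counts per library, are not named.

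Positions, exon lengths and coding sequences are from GENCODE v29 (GRCh38). Promoter windows are from RefSeq (GRCh38.p14), where 4 of 6 members matched (MT1X, MT2A, SLC30A1 and MTF1). No positions were converted between builds.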

Additional observations from a re-analysis of the deposited data

Results flagged for a closer look

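Effects that differed between 8 h and 24 h by a direct test (edgeR's quasi-likelihood test, adjusted over all genes) are collected here. For MMS against DMSO the change at 24 h minus the change at 8 h was -1.20 for SLC30A1, -0.96 for MT1X and -0.93 for MT1E on the log2 scale. In all 3 the change was lower at 24 h among the libraries of either title start. For the combination against DMSO the same difference was -1.54 for MT1E, -1.12 for MT2A, -1.11 for MT1X and -1.0 for SLC30A1. SLC30A1 and MT1X were past the threshold upward at 8 h of MMS, and MT1X was past it downward at 24 h. MT2A was past it downward at 24 h of MMS (log2 change -0.47) and of the combination (-1.30), and its difference between times was called for the combination.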

How the results depend on the processing

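Of 68 log2 changes reported, 67 kept their direction under every alternative. The exception was MT2A with MMS at 8 h (0.01), which was -0.0018 with RLE factors, -0.027 with library totals only, -0.013 with a mean count of at least 50, -0.0039 with DESeq2, and -0.089 to 0.083 without 1 library. Calls changed for 8 changes with only the libraries compared, for 6 with DESeq2, for 11 with the replicate block (all gained), for 3 with no filter, for 2 with library totals only, for 1 when genes averaging under 50 counts were dropped and for none with RLE factors. Leaving out each library in turn also moved calls and is not in this tally. The number of members called moved as follows. For sorafenib against DMSO it was 1 at 8 h with the block and with DESeq2 (0 in the report), and at 24 h it was 0 with only the libraries compared and 0 to 1 without 1 library (2 in the report). For the combination against DMSO at 8 h it was 1 with only the libraries compared and 1 to 2 without 1 library (2). For the combination against MMS at 8 h it was 2 with the block, 1 with DESeq2 and 0 to 1 without 1 library (0), and at 24 h it was 2 with the block, 2 with DESeq2, 0 with only the libraries compared and 0 without 1 library (1). For MMS against DMSO at 24 h it was 1 to 2 without 1 library (3). For the MMS difference between times it was 5 with the block (3). For DMSO at 24 h against 8 h it was 1 with no filter, 1 with a mean count of at least 50, 2 with the block and 2 with DESeq2 (0). The cause of these moves was not tested. The block also gave 3 for the combination against DMSO at 8 h (2), 3 for sorafenib against DMSO at 24 h (2) and 4 for the combination against sorafenib at 8 h (3), and changed no further call of a member. MT1F had 3 to 22 counts per library, and the part of depth in its lack of calls was not tested.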

Other observations

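In the combination at 8 h the 2 replicates stood apart in the metallothioneins. Replicate 1 had 427 CPM of MT2A, 111 CPM of MT1E and 36.2 CPM of MT1X, and replicate 2 had 325, 84.1 and 29.6 CPM. SLC30A1 (70.9 and 80.3 CPM) and MTF1 (51.4 and 60.9 CPM) were lower in replicate 1. The ferritin heavy chain FTH1 had 532 CPM in replicate 1 and 381 CPM in replicate 2. MT1E as percent of MT2A was 26.0 and 25.9% in these libraries.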
